A study of Mus musculus with 6 samples.

Results

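The PGC-1 coactivators and the transcription factors that work with them in mitochondrial biogenesis were examined in mouse soleus, a hindlimb muscle rich in oxidative fibres. The group comprised 10 genes chosen by name, of 43074 genes listed in each table: the coactivators Ppargc1a and Ppargc1b, the muscle regulator Perm1, the corepressor Nrip1, the estrogen-related receptors Esrra, Esrrb and Esrrg, the nuclear respiratory factors Nrf1 and Gabpa, and the mitochondrial transcription factor Tfam. All 10 were present in the tables and all 10 passed the filter on low values. The comparison was between 3 soleus libraries of WT mice and 3 of StarD7 mKO mice, in which the gene for the lipid transfer protein StarD7 is targeted. The sources used here do not spell out mKO, name the driver of the deletion or the deleted exons, or give the age or sex of the animals. They do not say which animal gave which library, so p-values measure the spread between these libraries.

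PGC-1 proteins do not bind DNA themselves. They are recruited by nuclear receptors such as the estrogen-related receptors (ERRs) and by nuclear respiratory factors, and they raise transcription of nuclear genes for the respiratory chain, fatty acid oxidation and the copying and transcription of mitochondrial DNA. In muscle, Ppargc1a is induced by exercise and is more active in oxidative than in glycolytic fibres.

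Promoter sequence is shown for 4 of these genes, because Ppargc1a and Perm1 had the most similar pattern of levels between libraries, and because Esrra and Tfam stand for the receptors and for the factor that acts on mitochondrial DNA. The sequences are RefSeq windows on build GRCm38.p6, not the build of the expression tables, written 5′ to 3′ on the strand of the gene. Capitals mark a match, on either strand, to a motif searched here. Stretches inside annotated exons were left out, except a 30-base site in Tfam.
Ppargc1a, chr5:51567727-51567975, minus strand, CRE half-site in capitals: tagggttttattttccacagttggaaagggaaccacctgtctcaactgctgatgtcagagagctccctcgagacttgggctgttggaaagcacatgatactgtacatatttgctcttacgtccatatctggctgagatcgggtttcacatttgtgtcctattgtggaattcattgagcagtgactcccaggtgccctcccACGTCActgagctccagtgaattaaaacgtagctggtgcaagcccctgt
Perm1, chr4:156215677-156215867, plus strand, ERR half-site in capitals: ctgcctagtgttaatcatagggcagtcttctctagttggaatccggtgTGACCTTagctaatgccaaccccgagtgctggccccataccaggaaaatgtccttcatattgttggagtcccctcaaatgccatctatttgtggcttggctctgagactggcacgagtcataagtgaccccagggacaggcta
Esrra, chr19:6921814-6922058, minus strand, NRF-1 motif in capitals: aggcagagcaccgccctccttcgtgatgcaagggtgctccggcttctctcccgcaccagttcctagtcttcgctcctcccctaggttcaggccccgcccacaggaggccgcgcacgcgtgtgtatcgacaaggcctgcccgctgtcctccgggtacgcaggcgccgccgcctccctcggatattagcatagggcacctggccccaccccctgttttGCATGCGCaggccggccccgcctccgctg
Tfam, chr10:71238073-71238102, minus strand, GABP motif in capitals: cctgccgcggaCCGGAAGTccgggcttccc

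The motifs were searched on both strands of windows of 300 bases, 250 before and 50 after each start site. Windows existed for 9 of the 10 genes, 15 windows in all. The ERR half-site AAGGTCA was in 4.72% of 32817 windows of all genes and, of the windows of the group, in that of Perm1 alone, 202 bases before the start. The NRF-1 letters GCATGCGC were in 2.71% of all windows and in that of Esrra, 34 bases before the start. The letters CCGGAAGT, bound by GABP and other ETS factors, were in 3.89% of all windows and in that of Tfam, 47 bases before the start. The half-site TGACGT, bound by CREB-type factors, was in 7.51% of all windows and in that of Ppargc1a, 50 bases before the start. No motif overlapped another in these windows. The letters searched were chosen with these sequences in view, and a match describes the sequence only.

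RNA levels are given in TPM, a read count per unit of gene length that adds up to the same total in each library, so that levels can be compared between genes. Reads recovered from these values came to between 42928774 and 51287999 per library, summed only over genes with whole reads in all 6 libraries. Stard7 itself lay between 87.5 and 95.4 TPM in WT and between 21.3 and 34.6 TPM in mKO, without overlap. Muscle markers were high in each library, with a summed level of 59097 to 62840 TPM in WT and 52501 to 54380 TPM in mKO over 8 genes such as Ckm and Acta1. The sums of the groups did not overlap, and those of mKO were lower. Transcripts of the 13 protein genes of mitochondrial DNA made up 42.8% ± 1.47 of the WT total and 47.2% ± 1.09 of the mKO total (SD, n = 3 per group). With a fixed sum, that larger share leaves less of the total for the nuclear genes as a whole, while a single gene can still be higher. The median log2 fold change, mKO minus WT, of all genes tested was −0.01, so the typical gene differed little in TPM. With these genes left out that median was 0.09. Values with these genes left out are given where they matter, as an alternative scaling and not as a correction.

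None of the 10 regulators was called by limma, a linear model fitted to log2(TPM + 1) over 12301 genes, with Benjamini-Hochberg adjustment and a threshold of 0.05. Over all genes tested, 0.520% passed. At an unadjusted p under 0.05 stood 2 of the 10, Esrrb and Esrrg, where 10.7% of all genes did so and 3.76% with a higher value in mKO, and limma-voom on recovered reads called 0 of the 9 regulators it could test, where it called 0.821% of all genes. The log2 fold changes, mKO minus WT, ran from −0.09 for Ppargc1b to 0.30 for Esrrg, with a median of −0.03 beside −0.01 for all genes tested. In bulk muscle, fewer cells of a type and less RNA per cell cannot be told apart.

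**Figure D1:**
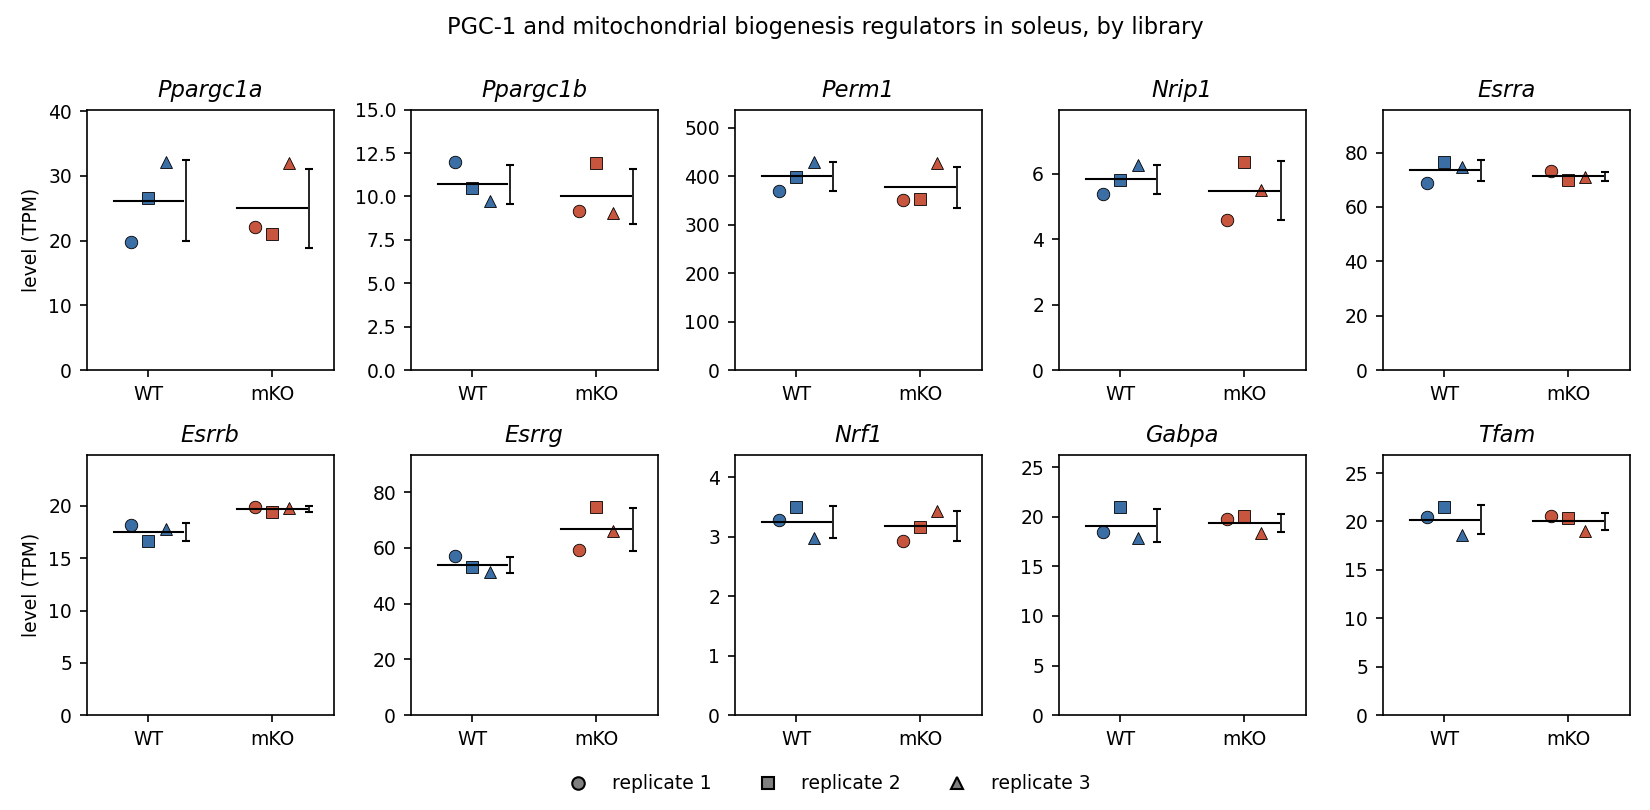
Level of each regulator in TPM (y axis, from 0) in the 3 WT and 3 mKO soleus libraries, with the symbol giving the replicate number, the bar the group mean and the whisker the SD. The groups overlap for 8 genes, while Esrrb and Esrrg are higher in each mKO library than in any WT library.

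Ppargc1a, which encodes PGC-1 alpha, measured 19.8, 26.6 and 32.2 TPM in WT replicates 1, 2 and 3 and 22.1, 21 and 32.0 TPM in those of mKO. Both groups spanned nearly the same range, with replicate 3 the highest in each. The means were 26.2 ± 6.23 and 25.0 ± 6.08 TPM (SD, n = 3), giving a log2 fold change of −0.06 (SE 0.20) with an adjusted p of 0.951. Its 95% interval, which like those below is not adjusted for the number of genes, ran from −0.52 to 0.40. The data thus allow a level in mKO anywhere from 0.697 to 1.32 times that in WT on the log2(TPM + 1) scale. The sign turned with the library left out, from −0.24 without WT replicate 1 or mKO replicate 3 to 0.10 without WT replicate 3.

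Ppargc1b, the gene of the related coactivator PGC-1 beta, stood at 12.0, 10.5 and 9.72 TPM in WT and at 9.19, 11.9 and 9.02 TPM in mKO. The groups overlapped, and the difference was smaller than the spread (log2 fold change −0.09, SE 0.12, 95% interval −0.36 to 0.17, adjusted p = 0.841). Of the summed TPM of the 3 family members, Ppargc1a, Ppargc1b and Pprc1, Ppargc1a made up 50.4%, 59.9% and 66.1% in WT and 58.2%, 52.7% and 66.1% in mKO. This share did not depend on the scaling of the library and was 58.8% ± 7.95 and 59.0% ± 6.76 in the 2 groups (exact two-sided permutation p = 1.0). Pprc1, the third member, was at 7.19 ± 0.381 and 7.01 ± 0.349 TPM.

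Perm1, a muscle protein induced by PGC-1 and ERRs that acts on oxidative genes, was the most abundant of the group. It stood at 370, 399 and 430 TPM in WT and at 352, 353 and 427 TPM in mKO. The mKO libraries of replicates 1 and 2 lay below all WT libraries and that of replicate 3 lay just under the highest. Its log2 fold change of −0.09 was about the size of its SE (SE 0.09, 95% interval −0.29 to 0.12, adjusted p = 0.804).

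Nrip1, also called RIP140, is a corepressor that restrains oxidative genes in muscle and fat. Its level was 5.39, 5.80 and 6.26 TPM in WT and 4.57, 6.36 and 5.51 TPM in mKO. The mKO libraries held both the lowest and the highest value (log2 fold change −0.08, SE 0.11, 95% interval −0.34 to 0.18, adjusted p = 0.861).

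Among the estrogen-related receptors, orphan nuclear receptors that bind the same half-site and recruit PGC-1, values of Esrrg and Esrrb were higher in mKO and those of Esrra were not. Esrrg, the receptor linked to the oxidative programme of slow fibres, stood at 57.1, 53.0 and 51.4 TPM in WT and at 59.1, 74.7 and 66.0 TPM in mKO. The groups did not overlap, though mKO replicate 1 lay close to WT replicate 1. Its mean in mKO was 1.24 times that in WT (log2 fold change 0.30, SE 0.09, 95% interval 0.09 to 0.50). The unadjusted p was 0.00962 and the adjusted p over all genes 0.26, so it did not pass.

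Esrrb stood at 18.2, 16.6 and 17.8 TPM in WT and at 19.9, 19.4 and 19.8 TPM in mKO. The groups did not overlap, and the mKO libraries had an SD of 0.249 TPM. Its mean in mKO was 1.13 times that in WT (log2 fold change 0.16, SE 0.06, 95% interval 0.03 to 0.30), and it did not pass either (unadjusted p = 0.026, adjusted p = 0.375). Of all genes tested, 5.67% were higher in every mKO library than in every WT library 10.3% were lower in every one, and 16.0% in all did not overlap.

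Esrra, the receptor most tied to PGC-1 alpha, stood at 68.9, 76.6 and 74.8 TPM in WT and at 73.1, 69.8 and 71.0 TPM in mKO. The mKO libraries lay inside the WT range. The interval of its difference was the narrowest of the 10, from −0.17 to 0.09 (log2 fold change −0.04, SE 0.06, adjusted p = 0.858). In the annotation used for lengths, 2.07% of its exonic bases are shared with the microRNA gene Mir6990 and 1.66% with Trmt112 on the other strand.

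The summed level of the 3 receptors was 144, 146 and 144 TPM in WT and 152, 164 and 157 TPM in mKO. Each mKO sum was above each WT sum, with means of 145 ± 1.18 and 158 ± 5.94 TPM (exact two-sided permutation p = 0.1, the smallest that 3 against 3 can give, and 0.275 when adjusted over the 11 quantities tested this way). Esrra made up 50.7% ± 2.53 of the sum in WT and 45.3% ± 2.74 in mKO, and Esrrg 37.2% ± 2.10 and 42.2% ± 3.35. The libraries overlapped in both shares (exact permutation p = 0.2 each, adjusted 0.314). The share of Esrrb was 12.1% ± 0.682 and 12.5% ± 0.622 (exact permutation p = 0.5). No adjusted value of the 11 quantities was below 0.275.

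**Figure D2:**
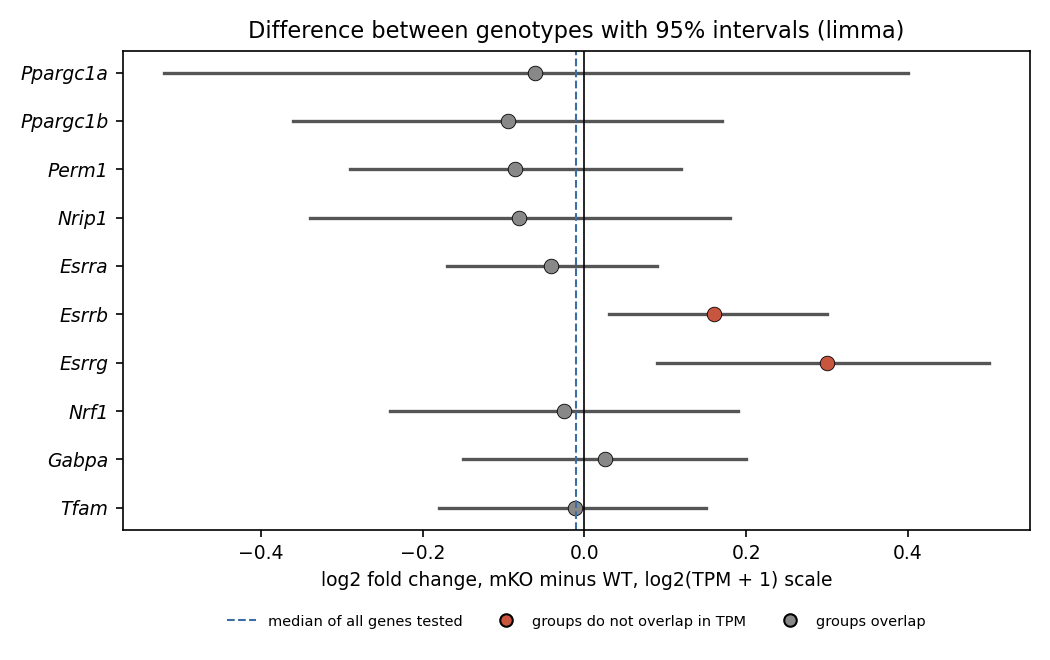
Difference between genotypes for each regulator, as the log2(TPM + 1) fold change of mKO over WT (x axis), with lines for the unadjusted 95% interval from limma and a dashed line at the median of all genes tested. The intervals of Esrrb (0.03 to 0.30) and Esrrg (0.09 to 0.50) lie above 0, and that of Ppargc1a (−0.52 to 0.40) is the widest.

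The nuclear respiratory factors and Tfam stood at nearly the same level in both groups. Nrf1, a factor that binds promoters of many respiratory chain genes and is not the antioxidant factor Nfe2l2, was the lowest of the 10, at 3.28, 3.50 and 2.97 TPM in WT and 2.93, 3.16 and 3.43 TPM in mKO. The groups overlapped almost fully (log2 fold change −0.03, SE 0.09, 95% interval −0.24 to 0.19, adjusted p = 0.954). With 618 to 781 recovered reads per library, its counting error was at most 4.02%, below its SD of 8.17% of the mean in WT.

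Gabpa, the DNA-binding subunit of GABP (also called NRF-2), stood at 18.5, 21 and 17.9 TPM in WT and at 19.8, 20.1 and 18.4 TPM in mKO. The mKO values lay inside the WT range (log2 fold change 0.03, SE 0.08, 95% interval −0.15 to 0.20, adjusted p = 0.946). Exons of Atp5j on the other strand cover 6.98% of its exonic bases, and the sources used here do not say whether counting was strand-aware.

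Tfam, which packages mitochondrial DNA and starts its transcription, stood at 20.5, 21.5 and 18.6 TPM in WT and at 20.6, 20.4 and 19 TPM in mKO. The mKO values again lay inside the WT range, and the mean was 99.0% of that in WT (log2 fold change −0.01, SE 0.07, 95% interval −0.18 to 0.15, adjusted p = 0.976). Beside this flat level, the share of transcripts of mitochondrial DNA was higher in mKO by 4.38 points (exact permutation p = 0.1, adjusted 0.275).

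When the genes of mitochondrial DNA were removed before scaling, all 10 regulators had a log2 fold change above 0, from 0.01 to 0.42, while the all-gene median went from −0.01 to 0.09. Relative to that median, Esrrg (0.42) and Esrrb (0.28) were again the highest. The lowest adjusted p of any regulator was then 0.0925 and none passed. The signs of the other 8 depend on the scaling, the library left out or both.

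The levels spanned a wide range, from 3.21 TPM for Nrf1 to 388 TPM for Perm1 as means over the 6 libraries, a ratio of 121. Perm1 was followed by Esrra (72.4 TPM) and Esrrg (60.2 TPM), whose libraries overlapped. Next came Ppargc1a (25.6 TPM), Tfam (20.1 TPM), Gabpa (19.3 TPM) and Esrrb (18.6 TPM), each overlapping the next of these. Ppargc1b (10.4 TPM), Nrip1 (5.65 TPM) and Nrf1 (3.21 TPM) were each separate from the gene above. The means of the receptors Esrra and Esrrg were thus above those of both PGC-1 coactivators.

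Ppargc1a varied more between libraries of a group than the other regulators. Its SD within groups was 0.331 on the log2(TPM + 1) scale, where the median of all genes tested was 0.106 and 3.92% of genes had a larger one. In TPM this was 23.8% of the mean in WT and 24.3% in mKO, far above its counting error of at most 1.83%. At the other end, Esrrb had an SD of 0.049, with 90.6% of genes above it, and Esrra one of 0.060, with 83.5% above.

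The pattern of Perm1 between libraries was close to that of Ppargc1a. Both were highest in replicate 3 of each group, lowest in WT replicate 1 within WT, and close together in mKO replicates 1 and 2. The deviation of Ppargc1a from its group mean was −0.36, 0.05 and 0.32 in WT and −0.15, −0.22 and 0.37 in mKO, and that of Perm1 was −0.11, 0.00 and 0.11 and then −0.09, −0.09 and 0.18, all on the log2 scale. Likeness was measured as the mean absolute difference between profiles over the 6 libraries, each centred and divided by its SD. By this measure Perm1, at 0.226, was in place 17 of 12300 genes for Ppargc1a, where the median gene was at 1.18. The ratio of Perm1 to Ppargc1a was 15.7 ± 2.74 in WT and 15.4 ± 1.82 in mKO (exact permutation p = 0.9).

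Ppargc1b did not share this pattern: its likeness value to Ppargc1a was 1.43, in place 10145, and its highest libraries were WT replicate 1 and mKO replicate 2, in which Ppargc1a was lowest in each group. Tfam (1.56, place 11599) and Gabpa (1.40, place 9592) also lay far from Ppargc1a, and Esrra was nearer (0.666, place 855). The genes most like Ppargc1a were the ethanolamine kinase gene Etnk1 (0.095), D17H6S53E (0.118) and Tmem268 (0.161). Those most like Perm1 were the zinc finger gene Zfp628 (0.097), Rc3h1, which encodes the RNA-binding protein roquin-1 (0.134), and the thrombomodulin gene Thbd (0.143). With 6 libraries that share depth and scaling, these values only describe the likeness.

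**Figure D3:**
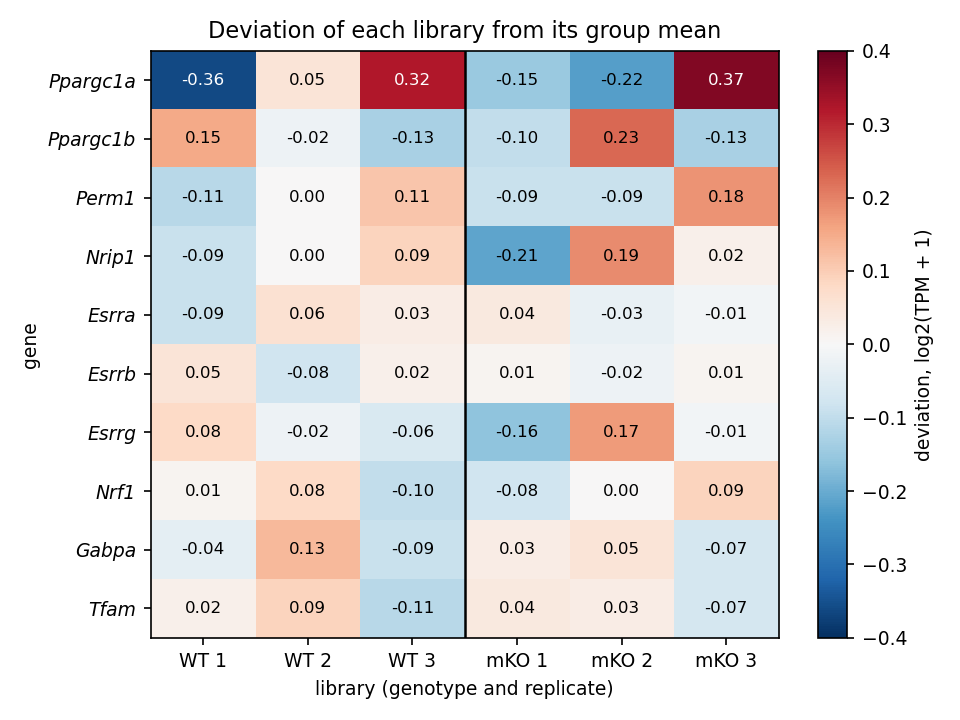
Deviation of each library from its group mean on the log2(TPM + 1) scale (colour and number), with regulators as rows and the 3 WT and 3 mKO libraries as columns. Ppargc1a spans −0.36 to 0.37, and Perm1 follows it at a smaller size, while Ppargc1b has opposite signs in 5 of the 6 libraries.

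The genes around these regulators were described in 7 lists. Partner receptors and factors with which PGC-1 works (15 tested) held no called gene by limma or limma-voom and 1 at an unadjusted p under 0.05, with a median of −0.08. That gene was Thrb, a thyroid hormone receptor, with means of 8.95 ± 1.05 TPM (WT) and 7.24 ± 0.719 TPM (mKO), a log2 fold change of −0.27 that did not pass (adjusted p = 0.395). Ppara, the fatty acid receptor and a partner of PGC-1 alpha, stood at 14.5, 27.3 and 33.0 TPM in WT and at 17.0, 21.9 and 22.8 TPM in mKO (−0.20, adjusted p = 0.851).

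Of the enzymes that act upstream of PGC-1 (20 tested), 2 fell and none rose, where 0.423% of all genes fell and 0.0976% rose, and the list median was −0.05. Camk2a, a subunit of the calcium-dependent kinase CaMKII, stood at 32.8, 33.5 and 31.0 TPM in WT and at 23.5, 22.5 and 22.6 TPM in mKO. It fell to 70.5% of its WT mean (log2 fold change −0.49, SE 0.06, adjusted p = 0.0188). Prkag3, the gamma subunit of the energy sensor AMPK found mainly in fast glycolytic fibres, stood at 7.69, 7.43 and 6.83 TPM in WT and at 4.77, 4.72 and 3.84 TPM in mKO (−0.61, SE 0.09, adjusted p = 0.0445). Limma-voom called the same 2 genes. With mitochondrially encoded genes left out, Prkag3 no longer passed (−0.55, adjusted p = 0.0789) and Camk2a did (−0.38, adjusted p = 0.0439). With no filter on low values neither passed (adjusted p 0.164 for Prkag3 and 0.0742 for Camk2a). The call of Prkag3 was lost whichever library was left out (adjusted p 0.0591 to 0.26), and that of Camk2a without any of WT replicates 1, 2 and 3 and mKO replicates 1 and 2 (0.0551 to 0.161). A further 2 genes, Mapk14 (p38 alpha kinase, −0.26) and Ppp3cb (a calcineurin subunit, −0.18), stood at an unadjusted p under 0.05 and did not pass.

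Coactivator partners and corepressors (16 tested) held no called gene by either tool and 1 at an unadjusted p under 0.05, with a median of −0.05. Lpin1, a phosphatidate phosphatase that also works as a coactivator with PGC-1 alpha, stood at 62.8 ± 11.8 and 50.6 ± 4.58 TPM (−0.29, adjusted p = 0.503). Genes listed beside the nuclear respiratory factors (8 tested, median −0.04) held none, also at an unadjusted p under 0.05. The largest differences of this list were those of Keap1 (−0.11) and Nfe2l2 (−0.09), an antioxidant pair distinct from Nrf1 and Gabpa.

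The machinery that copies and transcribes mitochondrial DNA (15 tested) stood as flat as Tfam. It held no called gene by either tool and none at an unadjusted p under 0.05. The median was −0.01 and all values lay between −0.07 and 0.08. The helicase gene Twnk was at 17.0 ± 0.680 and 17.9 ± 1.13 TPM and the polymerase gene Polrmt at 12.8 ± 0.655 and 12.1 ± 0.108 TPM. The 13 genes of mitochondrial DNA themselves had a median of 0.10, with 12 of them above 0, where 5519 of the 12301 genes tested were. None passed by limma. An unadjusted p under 0.05 was found for 3, where 3.76% of all genes had one with a higher value in mKO. Limma-voom, which called 0.821% of all genes, called mt-Nd1 and mt-Nd2. The latter, both subunits of complex I, stood at 32026 ± 1164 and 38415 ± 1185 TPM (mt-Nd1, 0.26, adjusted p = 0.18) and at 29808 ± 1546 and 36953 ± 835 TPM (mt-Nd2, 0.31, adjusted p = 0.131). The other of the 3 was mt-Co2 (0.20, adjusted p = 0.334).

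Classical targets of PGC-1 alpha and ERRs (26 tested) held no called gene by either tool. Of these, 22 lay below 0 (list median −0.10), where 6782 of the 12301 genes tested did. At an unadjusted p under 0.05 stood 5, or 19.2% beside 10.7% of all genes. These were the respiratory chain genes Cox5b (−0.14), Cox4i1 (−0.12), Atp5b (−0.12) and Sdha (−0.17), and Fndc5, the precursor of irisin, at 0.32. Fndc5 stood at 176, 213 and 227 TPM in WT and at 256, 272 and 237 TPM in mKO, without overlap (adjusted p = 0.281). Ucp3, a mitochondrial carrier induced by fatty acids, varied widely within both groups, at 48.7 ± 15.8 and 40.8 ± 16.0 TPM (−0.26, adjusted p = 0.828). With mitochondrially encoded genes left out, the median of the targets was 0.02, below the 0.09 of all genes, and the medians of the other 5 nuclear lists lay between 0.03 and 0.10.

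**Figure D4:**
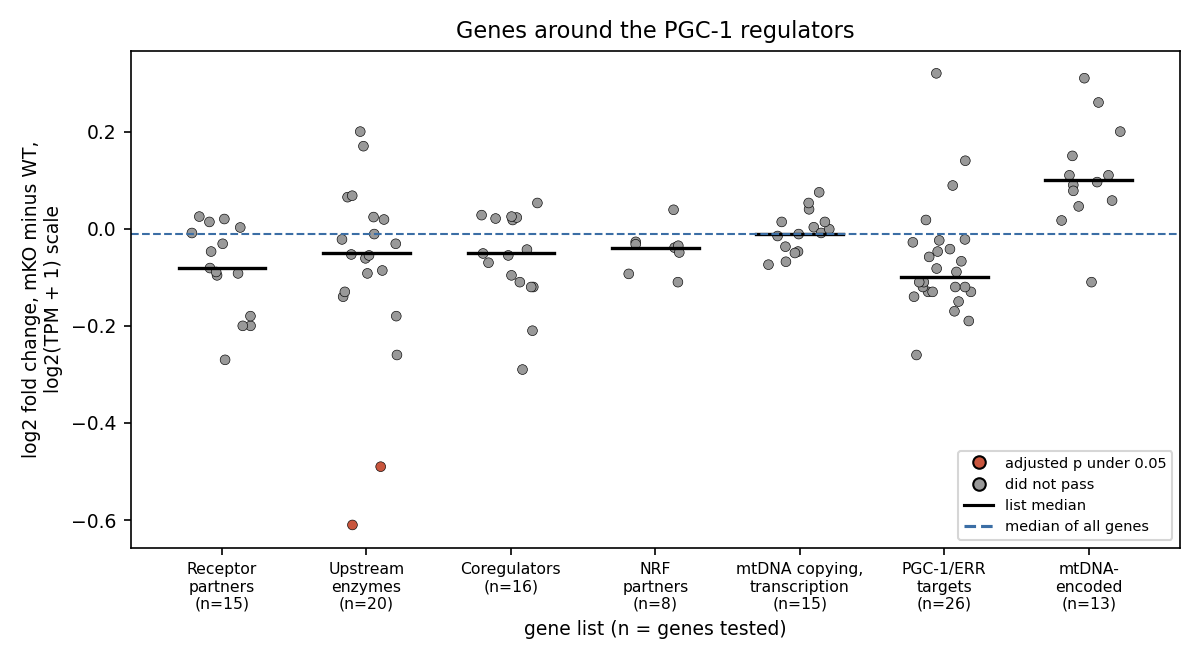
The log2(TPM + 1) fold change of mKO over WT (y axis) of each tested gene in 7 lists around the regulators (x axis), with a bar at each list's median, a dashed line at the median of all genes and colour for adjusted p under 0.05. Only Camk2a (−0.49) and Prkag3 (−0.61) are coloured, and the mitochondrially encoded genes have the highest median (0.10).

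Fibre type markers differed between the groups beside these values. Of 14 fast fibre genes limma called 5 lower (Tnnc2, Actn3, Pvalb, Mybpc2 and Myoz1), where it called 0.423% of all genes lower. All 14 lay below 0, where 6782 of the 12301 genes tested did, and 13 were lower in every mKO library, beside 10.3% of all genes. Limma-voom called 8 of the 14, beside 0.821% of all genes. Their summed level was 50628 to 59134 TPM in WT and 32128 to 41257 TPM in mKO. Of 11 slow fibre genes limma called Pln alone higher, where it called 0.0976% of all genes higher. Of the 11, 10 lay above 0, where 5519 of the 12301 genes tested did. The slow fibre sums overlapped, at 18059 to 23431 and 19478 to 27777 TPM. All 8 muscle markers summed above lay below 0, and 6 were lower in every mKO library. Limma called Ryr1 lower (−0.38, adjusted p = 0.0478), and limma-voom called Ckm and Ryr1 of the 6 it could test. With mitochondrially encoded genes left out, the muscle marker median went from −0.20 to −0.08, beside 0.09 for all genes. Myh7, the slow myosin, made up 30.2%, 24.1% and 21.6% of the 4 adult myosin heavy chain transcripts in WT and 48.2%, 49.9% and 31.4% in mKO. The exact permutation p of this share was 0.1 (adjusted 0.275). Myh7 itself overlapped between groups, at 3158 ± 430 and 3772 ± 767 TPM (limma adjusted p = 0.661). The rest of the sum was lower in mKO, with means of 3008 and 277 TPM for Myh1, 406 and 8.98 for Myh4, and 5966 and 4738 for Myh2. Within WT, Esrrg and the Myh7 share ran in the same order, highest in replicate 1 and lowest in replicate 3. Esrrb (18.2, 16.6 and 17.8 TPM) and Camk2a (32.8, 33.5 and 31.0 TPM) did not run in that order. Prkag3 did (7.69, 7.43 and 6.83 TPM), though it was lower in mKO, where the Myh7 share was higher. Within mKO, Esrrg and the Myh7 share were both highest in replicate 2, while Esrrg was lowest in replicate 1 and the Myh7 share in replicate 3. Orders of 3 libraries only describe these values. The part of fibre type in the values of Esrrg, Esrrb, Camk2a and Prkag3 was not tested.

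Markers of other cells that could contribute RNA were detected in both groups, except Ucp1, the uncoupling protein that defines brown fat. It was listed at 0 in the 3 WT libraries and in mKO replicates 2 and 3, and stood at 0.0597 TPM in mKO replicate 1. Of 6 tested adipocyte and brown fat genes, 5 endothelial, 7 macrophage, 6 fibroblast, 6 Schwann cell and 4 satellite cell genes, none passed by limma or limma-voom. At an unadjusted p under 0.05 stood Tie1 (endothelial, −0.18) and Pdgfra (fibroblast, 0.23). The summed adipocyte markers lay at 116 to 249 TPM in WT and 116 to 184 TPM in mKO, and the summed macrophage markers at 123 to 146 and 107 to 194 TPM. The endothelial sum was 215 to 222 TPM in WT and 206 to 210 TPM in mKO, without overlap. Of all genes tested, 10.3% were lower in every mKO library. With mitochondrially encoded genes left out, the median of the endothelial genes went from −0.10 to 0.02. That of all genes went from −0.01 to 0.09, so the endothelial median stayed below it. The fibroblast sum was 674 to 797 and 500 to 809 TPM, that of Schwann cells 82.5 to 117 and 88.1 to 116 TPM, and that of satellite cells 18.2 to 22.1 and 19 to 20.7 TPM. Their part in the levels of the regulators was not tested.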

How the data were processed

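Per the labels' protocols, poly(A) RNA of 6 soleus samples was made into directional libraries (NEBNext Ultra II). Values deposited by the authors were TPM, in a table for each library. Per the submitters' processing notes reads were placed on GRCm39, while aligner, counting tool, annotation and strand setting are not given in the sources used here. Groups and replicate numbers came from the titles.

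The model was limma-trend (R 4.3.3, limma 3.58.1), fitted with a genotype term alone to log2(TPM + 1) of genes that reached 1 TPM in 3 or more libraries. Fold changes on this scale understate those of low genes. Reads were recovered as TPM times exon length (GENCODE M21) over a scale for each library. They were whole, within 0.05 reads, for 93.12% of 22734 genes. Esrra was not, so limma-voom did not test it. Of recovered values above 0, 58.55% were even, so pairs may count as 2 reads in part. Counting errors cover counting only. The lowest chi-square between libraries of a group was 18.4 per degree of freedom, so none repeats another. Shares were compared with exact permutation tests (scipy 1.17.1). The test was checked on simulated data.

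The 10 regulators, the lists and the naming rule were chosen with earlier results of these data known. Named were the regulators, Stard7, the called genes of each pathway list (or its 2 largest differences where none was called), and the 3 genes most like Ppargc1a and Perm1 in pattern, predicted genes left out. A gene that this rule picked is not reported here. Mapk14, Ppp3cb, mt-Co2, Cox5b, Cox4i1, Atp5b, Sdha, Tie1, Pdgfra, Pprc1, Ckm, Ryr1 and the fibre type genes were named after their values were seen. Atp5f1b and Ccbl1 of the target list were taken as Atp5b and Kyat1, and Mterf1 was not matched. Alternatives were other filters, scalings and a pseudocount of 0.1, a block for the replicate number, leaving out each library, and, added after seeing the data, limma-voom.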

Additional observations from a re-analysis of the deposited data

How the results depend on the processing

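None of the 10 regulators passed in any of the 13 other settings, and their lowest adjusted p was 0.0925 (Esrrg, mitochondrially encoded genes left out). Esrrb (0.12 to 0.28) and Esrrg (0.21 to 0.42) kept their sign in all of them. The other 8 changed sign in at least 1, at sizes within their intervals. With mitochondrially encoded genes left out, which raises nuclear genes about alike, values were 0.054 for Ppargc1a, 0.013 for Ppargc1b, 0.076 for Esrra, 0.073 for Nrf1, 0.10 for Tfam, 0.032 for Perm1 and 0.020 for Nrip1. Median-of-ratios scaling gave 0.0052 for Tfam, and limma-voom 0.018 for Nrf1 and 0.040 for Tfam. Leaving out 1 library gave −0.24 to 0.097 for Ppargc1a (above 0 without WT replicate 3 at 0.097 and mKO replicates 1 and 2 at 0.012 and 0.050), −0.074 to 0.017 for Nrf1 (0.016 without WT replicate 2, 0.017 without mKO replicate 1), −0.019 to 0.091 for Gabpa (−0.019 without WT replicate 3), −0.069 to 0.033 for Tfam (0.00078 and 0.033 without WT replicates 1 and 2, 0.022 without mKO replicate 3) and −0.18 to 0.024 for Nrip1 (0.024 without mKO replicate 1). The cause of these changes of sign was not tested.

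Over all genes, 64 calls became 41 with mitochondrially encoded genes left out, 41 with median-of-ratios scaling, 6 with no filter, 21 with the replicate block and 4 to 94 with 1 library left out (4 without WT replicate 2, 94 without mKO replicate 3). Of these calls 12 were higher in the main setting, 21 of 41 with mitochondrially encoded genes left out, and 35 of 92 by limma-voom. The 2 calls in the pathway lists became 1 with mitochondrially encoded genes left out (Camk2a), 0 with no filter, 0 with the replicate block, 4 by limma-voom (with mt-Nd1 and mt-Nd2) and 0 to 1 with 1 library left out. Same-numbered libraries had deviations that correlated at 0.095, 0.0474 and 0.131, and differently numbered ones at −0.0929 to 0.00064. Each library thus matched its own number best. The numbers were not taken as pairs in the main setting because not all 3 values were above 0.1, and pairing remains possible. With the replicate block neither Camk2a (adjusted p = 0.0615) nor Prkag3 (adjusted p = 0.0659) passed. The shares of the ERR and PGC-1 families and of mitochondrial transcripts moved by less than their SD in each setting run. With 3 libraries a group, the width of the intervals limits what could be detected, most of all for Ppargc1a.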
